A study of Mus musculus with 14 samples.

Results

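Transcript levels in mouse skeletal muscle are described for the giant sarcomere proteins encoded by Ttn, Neb, Obsl1 and Speg and the muscle kinases encoded by Mylk2 and Mylk4. The 6 genes were taken by name from the 54532 genes counted in each library, and all 6 were among the 15458 genes left by a filter on low counts. They were chosen with earlier results of these libraries known. Mylk4 was chosen by its diet by genotype interaction, the difference between the diet responses of the genotypes, and the values used for the other 5 are not recorded. Their fold changes are therefore a description, and the counts of calls among them are given with nothing read from them.

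RNA was sequenced from skeletal muscle of male FVB/N mice in 14 libraries. EC-Myc OE mice carried Tet-O-Myc, a human c-Myc transgene that in this line sits on the Y chromosome, and Cdh5-tTA, a transactivator driven by an endothelial promoter, so that the transgene was meant for endothelial cells and not for muscle fibres. CT mice were littermates with Tet-O-Myc and without the transactivator. Doxycycline in the food kept the transgene off until it was withdrawn at 4 to 6 weeks of age, and mice received control diet (CTD) or a high-fat western diet (WD) for 20 weeks by the labels. The paper's results give a shorter exposure for the transcriptome than its methods do, and which holds for these libraries is not known. By the labels there were 3 CT-CTD, 3 CT-WD, 4 OE-CTD and 4 OE-WD libraries. Soleus and gastrocnemius were both sampled in the study, and the labels do not say which of them a library holds. The labels assign the group sizes by genotype and a figure legend of the study by diet. The labels were kept, and an exchange of those 2 group names, CT-WD for OE-CTD, was computed as an alternative. The deposited column names carry numbers that run with the groups. All OE-WD libraries share a number, OE-CTD libraries 1 to 3 share another that library 4 does not, and library 1 of each CT group is numbered apart from libraries 2 and 3. What these numbers stand for is not given, so an effect of it cannot be told apart from the group differences. Nothing in the labels says that libraries of a group came from separate animals, so p-values measure the spread between these samples.

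CT-CTD libraries held 24101226 to 25054855 summed counts (median 24807368) and CT-WD libraries 21833839 to 26518734 (median 23814408). OE-CTD libraries held 22083340 to 28519159 (median 24226483) and OE-WD libraries 22033140 to 27698046 (median 26198262). Levels of a gene across libraries are given as TMM-scaled CPM, counts relative to library size, and levels of different genes as the authors' FPKM, which are per length. Skeletal muscle markers were abundant: the 10 listed genes summed to a mean of 144000 CPM in CT-CTD, 150100 in CT-WD, 139000 in OE-CTD and 144600 in OE-WD, with Myh4, the fastest myosin heavy chain, on top. The 8 fast fibre markers summed to means between 114700 and 127300 CPM, again led by Myh4 and with Tnnc2 under 1 CPM, and the 8 slow fibre markers, led by Atp2a2, to means of 5669 CPM in CT-CTD, 5799 in CT-WD, 6771 in OE-CTD and 6485 in OE-WD. Of the 5 cardiac markers, Nppa, Nppb, Mybpc3 and Tnni3 were under 1 CPM, and Myh6 carried the sum, with means between 164.5 and 208.3 CPM.

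Summed markers of endothelial cells, fibroblasts and macrophages had higher means in OE than in CT. Endothelial markers (10 genes, led by Eng) summed to 437.2 ± 20.9 CPM in CT-CTD (SD, n = 3), 504.1 ± 33.8 in CT-WD (n = 3), 531.1 ± 26 in OE-CTD (n = 4) and 584.2 ± 11.2 in OE-WD (n = 4). Fibroblast markers (5 genes, led by Dcn) summed to 374.6 ± 58.3, 549.8 ± 358, 895.7 ± 195 and 957.7 ± 395 CPM in the same order, and macrophage markers (8 genes, led by Csf1r) to 42.44 ± 14.2, 60.31 ± 30.4, 71.24 ± 13.1 and 71.07 ± 17.6 CPM. None of these 3 lists had a marker under 1 CPM. The fibroblast mean of CT-WD was carried by library 1, at 963.3 CPM against 345 and 341.1 CPM in libraries 2 and 3. Group means of the 5 smooth muscle markers, led by Smtn and with Tagln under 1 CPM, were between 226.3 and 235.8 CPM. Those of 6 adipocyte markers (led by Cfd) were between 69.44 and 105.1 CPM, and those of 5 epidermal markers (Krt5) between 19.07 and 51.3 CPM. CT-WD library 1 also had the highest macrophage, adipocyte and epidermal sums of its group (95.05, 144 and 80.59 CPM), and CT-CTD library 1 those of its own (58.45, 182.7 and 41.84 CPM). These are the CT libraries numbered apart in the column names. The part of these cells in the values of the 6 genes was not tested, and in whole muscle fewer cells of a type and less RNA per cell cannot be told apart.

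OE-CTD library 4 and OE-WD library 4 stood apart in other ways. Counts from mitochondrially encoded genes made up 14.93% and 14.54% of them, and between 9.659% and 12.76% of the other 12 libraries. Their TMM factors were 0.8877 and 0.8992, against 0.9451 to 1.068 in the others. Both also held the highest Ttn levels of all 14 libraries and the highest sums of skeletal muscle markers (171600 and 176700 CPM, against at most 163800 in the others), so values of the 6 genes that rest on them are also given without them.

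The sarcomere is the contractile unit of striated muscle, in which myosin thick filaments slide along actin thin filaments. Titin (Ttn) runs from the Z-disc to the M-band as a molecular spring and carries a kinase domain at the M-band, and nebulin (Neb) lies along the thin filament and helps set its length. Obsl1 links titin to myomesin at the M-band, Speg is a kinase of the triad, where calcium release is controlled, and Mylk2 is the calmodulin-dependent kinase that phosphorylates the regulatory light chain of skeletal muscle myosin. Mylk4 is a related member of the myosin light chain kinase family found in striated muscle.

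Per length, the order of the 6 genes was Mylk2, Mylk4, Neb, Ttn, Speg and Obsl1 in all 14 libraries. Mean FPKM over the 14 libraries was 573.9 ± 75.4 for Mylk2, 291 ± 54.9 for Mylk4, 188.5 ± 23.1 for Neb, 103.7 ± 20.7 for Ttn, 55.62 ± 6.2 for Speg and 10.06 ± 1.82 for Obsl1 (SD, n = 14). Ranked by counts, which grow with length, Ttn was the gene at rank 12 of those tested, and Obsl1 at rank 1610. The deposited length of Ttn was 116825 bases, against 26582 for Neb, 12741 for Speg, 8467 for Obsl1, 7689 for Mylk4 and 2951 for Mylk2.

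Mylk4 (ENSMUSG00000044951) lies on the minus strand of chr13:32700834-32783954 of GRCm38. In CT-CTD its level was 2466, 2858 and 2524 CPM in libraries 1 to 3, and in CT-WD 1975, 2161 and 1629 CPM. In OE-CTD it was 1659, 1522, 1629 and 1854 CPM in libraries 1 to 4, and in OE-WD 2088, 2015, 2113 and 2158 CPM. Every CT-WD library was thus below every CT-CTD library, and every OE-WD library above every OE-CTD library. The group means were 2616 ± 211.4 CPM in CT-CTD, 2094 ± 60.08 in OE-WD, 1922 ± 269.6 in CT-WD and 1666 ± 138.5 in OE-CTD (SD, n = 3 or 4). In that order only the CT-CTD and OE-WD libraries were separate, while OE-WD overlapped with CT-WD and CT-WD with OE-CTD.

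**Figure D1:**
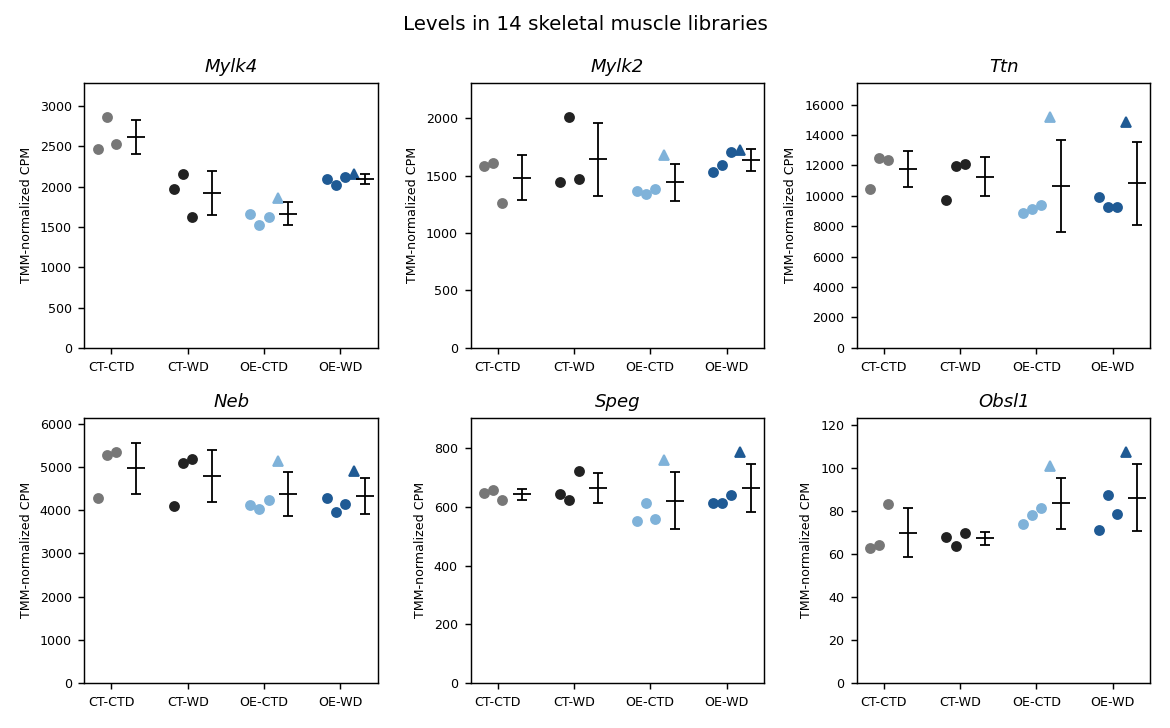
Level of each of the 6 genes (vertical axis, TMM-normalized CPM) in the libraries of the 4 groups (horizontal axis), with 1 point per library, libraries numbered 4 as triangles, and mean ± SD as bars. Mylk4 lies between 2466 and 2858 CPM in CT-CTD and between 1522 and 1854 CPM in OE-CTD, and the triangles of Ttn stand at 15160 and 14890 CPM.

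The log2 fold change of Mylk4 was -0.45 (SE 0.112) for CT-WD against CT-CTD and 0.33 (SE 0.0971) for OE-WD against OE-CTD. The interaction, OE response minus CT response, was 0.77 (SE 0.148). Between genotypes, Mylk4 was at -0.65 (SE 0.104) for OE-CTD against CT-CTD, again without overlap of the libraries, and at 0.12 (SE 0.105) for OE-WD against CT-WD, where the libraries overlapped. The last value was 0.02 without CT-WD library 3 and 0.22 without CT-WD library 2. That Mylk4 differed between the genotypes by more on CTD than on WD restates the interaction, by which the gene was chosen. Without OE libraries 4 the interaction was 0.81. An exchange of CT-WD with OE-CTD leaves the interaction as it is and trades the diet response of CT for the genotype difference on CTD. It also trades the diet response of OE, 0.33, for the genotype difference on WD, 0.12.

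The level of Mylk4 can also be set against Mylk2 of the same library, which needs no scaling between libraries. In FPKM, Mylk4 stood at 59.8%, 68.2% and 77.1% of Mylk2 in CT-CTD and at 52.4%, 41.3% and 42.6% in CT-WD. In OE-CTD it stood at 46.7%, 43.6%, 45.2% and 42.4%, and in OE-WD at 52.4%, 48.7%, 47.5% and 48%. The CT-WD libraries were all below those of CT-CTD, and the OE-WD libraries all above those of OE-CTD, at the nearest 47.5% against 46.7%. The ratio reuses the Mylk4 values by which the gene was chosen, so it is not separate evidence. It also moves with Mylk2. The highest ratio, 77.1%, was in CT-CTD library 3, where Mylk2 was lowest (1257 CPM). The lowest, 41.3%, was in CT-WD library 2, where Mylk2 was highest (2006 CPM).

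Mylk2 (ENSMUSG00000027470, plus strand of chr2:152911352-152923068) was at 1581, 1607 and 1257 CPM in CT-CTD and at 1446, 2006 and 1468 CPM in CT-WD. It was at 1363, 1339, 1382 and 1678 CPM in OE-CTD and at 1529, 1589, 1709 and 1725 CPM in OE-WD. CT-WD library 2 was the highest of the 14 and CT-CTD library 3 the lowest, and the groups overlapped in each comparison. In order of level the groups were CT-WD (1640 ± 317.2 CPM), OE-WD (1638 ± 94.34), CT-CTD (1482 ± 195.2) and OE-CTD (1440 ± 159.3), with no neighbours apart. The log2 fold change was 0.15 (SE 0.138) for WD in CT and 0.18 (SE 0.12) for WD in OE, and the interaction was 0.04 (SE 0.183). Without CT-WD library 2 the first of these was -0.02 and the interaction 0.21.

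Around these kinases, the 10 listed genes of myosin light chain phosphorylation held the other kinases, calmodulins and the phosphatase. Mylk, the smooth muscle kinase, had a mean of 2.961 ± 0.31 FPKM, and Mylk3, the cardiac kinase, 0.2228 ± 0.101 FPKM (SD, n = 14). Both were far below Mylk2 and Mylk4 per length. Mylpf, the fast fibre light chain that Mylk2 phosphorylates, was at 6020 ± 772 FPKM. The gene of the list furthest from 0 was Mylk3 for WD in CT (0.64), WD in OE (0.23), genotype on CTD (0.59) and the interaction (-0.41), with an SE between 0.448 and 0.701. With single libraries left out Mylk3 ran from 0.04 to 1.39 for WD in CT and from -1.16 to 0.20 for the interaction. For WD in OE it ran from -0.02 to 0.45, and for genotype on CTD from 0.25 to 1.34. The gene furthest from 0 for OE-WD against CT-WD was Ppp1r12a, a targeting subunit of the myosin phosphatase (-0.26, SE 0.109). No gene of this list passed an adjusted p of 0.05 in edgeR.

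Ttn (ENSMUSG00000051747, minus strand of chr2:76703980-76982547) was at 10430, 12480 and 12390 CPM in CT-CTD and at 9759, 11940 and 12090 CPM in CT-WD. It was at 8842, 9163, 9400 and 15160 CPM in OE-CTD and at 9915, 9283, 9251 and 14890 CPM in OE-WD. Library 4 was the highest in both OE groups, and the other OE libraries were all below 10000 CPM. Group means were 11770 ± 1160 CPM in CT-CTD, 11260 ± 1304 in CT-WD, 10840 ± 2722 in OE-WD and 10640 ± 3022 in OE-CTD, and neighbours overlapped. The log2 fold change was -0.15 (SE 0.199) for OE-CTD against CT-CTD and -0.06 (SE 0.2) for OE-WD against CT-WD. Without OE libraries 4 these were -0.37 and -0.25, so the size of both values rested on those libraries. The diet values were -0.06 (SE 0.214) in CT and 0.03 (SE 0.185) in OE, and the latter was 0.25 without OE-CTD library 4 and -0.17 without OE-WD library 4. The value in CT was -0.15 without CT-CTD library 1 and 0.03 without CT-WD library 1. Each CT-WD library was below the CT-CTD library of the same number, which the labels do not call a pair.

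Neb (ENSMUSG00000026950, minus strand of chr2:52136647-52378474) was at 4293, 5290 and 5343 CPM in CT-CTD and at 4101, 5087 and 5192 CPM in CT-WD. It was at 4127, 4025, 4235 and 5136 CPM in OE-CTD and at 4297, 3964, 4139 and 4915 CPM in OE-WD. In each CT group library 1 was below the others, and in each OE group library 4 was above them. Each CT-WD library was below the CT-CTD library of the same number, though a shared number is not known to be a pair. The means were 4975 ± 591.4 CPM in CT-CTD, 4793 ± 601.9 in CT-WD, 4381 ± 510.5 in OE-CTD and 4329 ± 413.6 in OE-WD, with overlap between neighbours. The log2 fold change was -0.18 (SE 0.125) for OE-CTD against CT-CTD, -0.15 (SE 0.125) for OE-WD against CT-WD and within 0.054 of 0 for both diet comparisons. With single libraries left out the diet values ran from -0.16 to 0.05 in CT and from -0.08 to 0.07 in OE. The first value was -0.28 without CT-CTD library 1 and -0.13 without CT-CTD library 3, and the second -0.25 without CT-WD library 1 and -0.09 without CT-WD library 3. Without OE libraries 4 they were -0.27 and -0.22.

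Neb and Ttn varied together. The Pearson correlation of their log2 CPM was 0.87 over 14 libraries and 0.97 over the 12 without OE libraries 4. Ttn stood at 67.2% and 69% of the FPKM of Neb in OE-CTD library 4 and OE-WD library 4, against 48.7% to 55.3% in the other 12 libraries. These points share each library's scaling, depth and RNA quality.

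Speg (ENSMUSG00000026207, plus strand of chr1:75375297-75432320) was between 623.6 and 657.4 CPM in CT-CTD, between 625.3 and 723.3 CPM in CT-WD, between 552.7 and 760.7 CPM in OE-CTD and between 614.6 and 786.6 CPM in OE-WD. The highest library was number 4 in both OE groups. The means were 664.9 ± 51.64 CPM in CT-WD, 664.7 ± 82.24 in OE-WD, 643.1 ± 17.49 in CT-CTD and 621.8 ± 96.52 in OE-CTD, and all neighbours overlapped. The fold changes on the log2 scale were between -0.05 and 0.10 in the 5 comparisons, with an SE between 0.109 and 0.167. For OE-CTD against CT-CTD the value was -0.16 without OE libraries 4. For WD in OE it was 0.21 without OE-CTD library 4 and 0.01 without OE-WD library 4. Speg correlated with Ttn at 0.83 over 14 libraries and at 0.60 over the 12.

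Obsl1 (ENSMUSG00000026211, minus strand of chr1:75479310-75506452) was at 62.6, 63.97 and 83.27 CPM in CT-CTD and at 67.86, 63.83 and 69.97 CPM in CT-WD. It was at 73.87, 78.06, 81.47 and 100.9 CPM in OE-CTD and at 71.08, 87.43, 78.65 and 107.3 CPM in OE-WD. On WD, every OE library was above every CT library, while on CTD library 3 of CT lay among the OE libraries. The means were 86.13 ± 15.64 CPM in OE-WD, 83.59 ± 11.98 in OE-CTD, 69.95 ± 11.56 in CT-CTD and 67.22 ± 3.121 in CT-WD, and neighbours overlapped. The log2 fold change was 0.36 (SE 0.142) for OE-WD against CT-WD and 0.26 (SE 0.142) for OE-CTD against CT-CTD, and within 0.057 of 0 for diet in either genotype. With single libraries left out the diet values ran from -0.14 to 0.09 in CT and from -0.08 to 0.15 in OE. Without OE libraries 4 the first value was 0.23. The second was 0.15 without OE-CTD library 4 and 0.40 without CT-CTD library 3. The summed fibroblast, macrophage, endothelial and slow fibre markers above also had higher means in OE than in CT, though the median slow fibre marker was at -0.03 for OE-WD against CT-WD, and their part in the Obsl1 values was not tested.

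Calls were also counted over the 6 genes. For CT-WD against CT-CTD edgeR called 0 of 6 at an adjusted p under 0.05, where it called 0% of all tested genes. At an unadjusted p it called 1 (Mylk4), against 7.28% of all genes, and DESeq2 called 1 and limma 0 after adjustment. The libraries did not overlap for 1 of 6, Mylk4, and for 9.63% of all genes. For OE-WD against OE-CTD the count was 0 of 6 beside 0.00647% of all genes after adjustment (0 also in DESeq2 and limma), and 1 (Mylk4) beside 4.2% without it. Libraries were separate for 1, Mylk4, and for 4.08% of all genes.

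For OE-WD against CT-WD edgeR called 0 of 6 after adjustment beside 0.725% of all genes (0 also in DESeq2 and limma), and 1, Obsl1, without adjustment beside 16.9%. Its libraries were the only ones of the 6 without overlap, as were those of 11.6% of all genes. For OE-CTD against CT-CTD 1 of 6, Mylk4, was called after adjustment beside 2.67% of all genes, and 1 without it beside 15.9%. Libraries of Mylk4 were separate there, as were those of 15.5% of all genes. For the interaction 0 of 6 were called after adjustment beside 0%, and 1, Mylk4, without it beside 5.92%. DESeq2 and the fit with a replicate block each called 1, Mylk4, which was their only call among all genes, and limma called 0. Levels lower in every CT-WD library and higher in every OE-WD library than in those on CTD were found for 1 of 6, Mylk4, and for 0.129% of all genes, 20 in number. Mylk4 was chosen by the interaction, which is built from the same libraries as the other comparisons, so nothing is read from these counts.

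Beyond the 6 genes, 106 genes of the sarcomere, its kinases and their partners were listed, and all 106 were tested. After adjustment over all tested genes, edgeR called 0 of them for diet in CT, diet in OE and the interaction. At an unadjusted p it called 14 (12 up, 2 down; 13.2% beside 7.28% of all genes), 0 (0% beside 4.2%) and 9 (2 up, 7 down; 8.49% beside 5.92%). DESeq2 called 1, 0 and 0, and limma 0 in each. For OE-WD against CT-WD, 1 rose and 1 fell (1.89% beside 0.725% of all genes), and for OE-CTD against CT-CTD 1 rose (0.943% beside 2.67%). DESeq2 called 5 in each of these. Without adjustment 5 were up and 13 down (17% beside 16.9% of all genes) on WD, and 12 up and 5 down (16% beside 15.9%) on CTD. The median log2 fold change of the 106 genes was 0.07 for diet in CT, -0.01 for diet in OE, -0.06 for genotype on WD, 0.03 for genotype on CTD and -0.09 for the interaction. Over all tested genes it was 0.01, 0.00, 0.01, 0.00 and -0.01.

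Trim63, the ubiquitin ligase MuRF1 that binds titin near its kinase domain, fell in OE-WD against CT-WD. It was at 739.6 ± 291 CPM in CT-WD (n = 3) and 274.3 ± 83.5 in OE-WD (n = 4), a log2 fold change of -1.43 (SE 0.241, edgeR adjusted p = 0.0276). Its level was 299.8 ± 38.2 CPM in CT-CTD and 248.1 ± 23.9 in OE-CTD. Every OE-WD library was below every CT-WD library, at the nearest 398.4 CPM against 407.3 CPM, in library 1 of each. The other CT-WD libraries were at 948.5 and 863 CPM. Libraries were separate, in either direction, for 11.6% of all genes in this comparison. The adjusted p was 0.0813 without CT-WD library 2, 0.112 without CT-WD library 3, and 0.0883, 0.0753 and 0.0683 without OE-WD library 2, 3 or 4. The call thus rested on several single libraries, while the log2 value was between -1.38 and -1.21 in these fits. The call was also lost with only the groups compared (edgeR adjusted p = 0.154, log2 value -1.435). It was lost too with the 2 group names exchanged (1, at a log2 value of 0.15), and in limma without a filter (0.105). A replicate block gave 0.12 in edgeR, though the values do not pair libraries of the genotypes.

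In the same comparison Prkag3, the muscle-specific gamma subunit of the AMP-activated kinase, rose. It was at 195.5 ± 29.8 CPM in CT-WD (n = 3) and 276.3 ± 7.55 in OE-WD (n = 4). The log2 fold change was 0.50 (SE 0.101, edgeR adjusted p = 0.037). Every OE-WD library was above every CT-WD library, where 11.6% of all genes were separate in either direction. Leaving out each of the 14 libraries in turn kept the call in 7 cases, with adjusted p between 0.0249 and 0.191 in edgeR. It was lost without CT-WD library 3, without OE-CTD library 1, 2 or 3, and without OE-WD library 2, 3 or 4. The log2 value was between 0.43 and 0.50 in those fits. In edgeR the adjusted p was 0.0521 with the length trend removed (log2 value 0.47) and 0.164 with only the groups compared (log2 value 0.50). It was 1 with the 2 group names exchanged, where the log2 value was 0.14. With a replicate block it was 0.116, and in limma 0.054.

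Mybph, a myosin-binding protein of fast fibres, rose in OE-CTD against CT-CTD. It was at 8.056 ± 1.5 CPM in CT-CTD (n = 3) and 31.02 ± 15.2 in OE-CTD (n = 4), a log2 fold change of 1.94 (SE 0.41, edgeR adjusted p = 0.0238). All 4 OE-CTD libraries, from 14.68 CPM, were above the 3 of CT-CTD, up to 9.689 CPM. In this comparison 15.5% of all genes were separate in either direction. The adjusted p was 0.106 without CT-CTD library 2, 0.11 without CT-CTD library 3 and 0.0697 without OE-CTD library 3. The log2 value was between 1.60 and 1.91 in these fits. With the 2 group names exchanged the adjusted p was 0.604, at a log2 value of 1.07. It was 0.0786 with a replicate block, though the values do not pair libraries of the genotypes, and 0.128 in limma without a filter.

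The other listed genes are given by the gene furthest from 0 in each list, as log2 values that did not pass the adjusted test in edgeR. Of the values given here, DESeq2 called Trim63 for CT-WD against CT-CTD, Fhl2 for OE-CTD against CT-CTD, and Myh7 and Jph2 for OE-WD against CT-WD. Among 14 M-band and titin kinase partners, Trim63 was at 1.30 (SE 0.262) for CT-WD against CT-CTD and at -1.16 (SE 0.343) for the interaction. Fhl2, a LIM protein that binds titin, was at 0.70 (SE 0.212) for OE-CTD against CT-CTD and -0.32 (SE 0.191) for OE-WD against OE-CTD, the latter at -0.56 without OE libraries 4. The list medians were between -0.09 and 0.07. Among 25 Z-disc proteins, Xirp1, an actin-binding repeat protein, was at 1.40 (SE 0.464) for CT-WD against CT-CTD, 1.11 (SE 0.439) for OE-CTD against CT-CTD and -1.71 (SE 0.607) for the interaction. Csrp3, the muscle LIM protein, was at -0.99 (SE 0.443) for OE-WD against CT-WD and -0.45 (SE 0.414) for OE-WD against OE-CTD. In CT-WD both rested on library 3, with Xirp1 at 648.9, 320.1 and 1964 CPM and Csrp3 at 152.1, 162.7 and 794.5 CPM in libraries 1 to 3. Without it the CT-WD against CT-CTD value of Xirp1 was 0.39 and its interaction -0.70. The OE-WD against CT-WD value of Csrp3 was 0.24 without that library. Without OE libraries 4 the OE-CTD against CT-CTD value of Xirp1 was 0.87. The list medians were between -0.13 and 0.07.

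The 5 partners of titin in the I-band include the ankyrin repeat proteins that respond to mechanical load. Ankrd1 was at 1.87 (SE 0.595) for CT-WD against CT-CTD, 0.63 (SE 0.562) for OE-CTD against CT-CTD, -1.53 (SE 0.534) for OE-WD against CT-WD and -2.16 (SE 0.779) for the interaction. Ankrd2 was at -0.31 (SE 0.327) for OE-WD against OE-CTD. In CT-WD libraries 1 to 3 Ankrd1 was at 13.88, 3.721 and 51.75 CPM, so its values for that group rested on library 3, without which they were 0.49, -0.16 and, for the interaction, -0.79. The medians of the 5 genes ran from -0.61 for the interaction to 0.30 for CT-WD against CT-CTD. Ankrd2 was also high in CT-WD library 3, at 532.5 CPM against 141.2 and 185.5 CPM in libraries 1 and 2. The medians were not computed without that library.

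Titin splicing factors numbered 3. Rbm20, which represses inclusion of titin exons, was at 0.48 (SE 0.172) for CT-WD against CT-CTD, 0.14 (SE 0.149) for OE-WD against OE-CTD, -0.39 (SE 0.159) for OE-WD against CT-WD and -0.34 (SE 0.227) for the interaction. Without CT-WD library 3 the values of Rbm20 with that group were 0.21, -0.12 and -0.06. Its OE-WD against OE-CTD value was 0.06 without OE-WD library 1 and 0.22 without OE-WD library 2. Mbnl1 was at -0.11 (SE 0.0815) for OE-CTD against CT-CTD, and at -0.065 without CT-CTD library 2. Titin isoforms cannot be read from counts per gene and were not analysed here.

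Nebulin acts with the 12 listed thin filament genes, among them the kelch proteins that stabilise it. Klhl40 was at 0.63 (SE 0.349) for CT-WD against CT-CTD, -0.73 (SE 0.323) for OE-WD against CT-WD and -0.89 (SE 0.461) for the interaction. These too rested on CT-WD library 3, at 471.9 CPM against 136.9 and 148.5 CPM in libraries 1 and 2. Kbtbd13 was at 0.38 (SE 0.277) for OE-CTD against CT-CTD and -0.38 (SE 0.255) for OE-WD against OE-CTD. Among the 11 thick filament genes, Mybph was at 1.07 (SE 0.426) for CT-WD against CT-CTD, -0.38 (SE 0.349) for OE-WD against OE-CTD and -1.46 (SE 0.55) for the interaction. The second of these was -0.80 without OE-WD library 4 and -0.04 without OE-CTD library 3. Myh7, the slow myosin heavy chain, was at 0.50 (SE 0.16) for OE-WD against CT-WD, and at 0.40 without OE libraries 4.

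Of 15 other muscle kinases and their subunits, Alpk2, an alpha-kinase, was at 0.64 (SE 0.204) for CT-WD against CT-CTD, -0.50 (SE 0.189) for OE-WD against CT-WD and -0.63 (SE 0.269) for the interaction. Without CT-WD library 3 these were 0.41, -0.28 and -0.41. Camk1d was at 0.50 (SE 0.281) for OE-CTD against CT-CTD and Prkcq, protein kinase C theta, at -0.16 (SE 0.0912) for OE-WD against OE-CTD, the last at -0.07 without OE-CTD library 4. Among the 8 triad genes and partners of Speg, Jph2, a junctophilin that ties the triad membranes together, was at -0.14 (SE 0.15) for CT-WD against CT-CTD, 0.45 (SE 0.142) for OE-WD against CT-WD and 0.28 (SE 0.198) for the interaction. Bin1 was at -0.18 (SE 0.0896) for OE-CTD against CT-CTD and Jph1 at 0.18 (SE 0.0939) for OE-WD against OE-CTD. With single libraries left out Jph2 ran from -0.24 to -0.07 for CT-WD against CT-CTD and from 0.168 to 0.415 for the interaction. For OE-WD against CT-WD it ran from 0.341 to 0.514, and was 0.338 without OE libraries 4. Bin1 ran from -0.25 to -0.11 for OE-CTD against CT-CTD.

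Obsl1 also forms the 3M complex with the ubiquitin ligase scaffold Cul7 and with Ccdc8. Cul7 was at 0.38 (SE 0.121) for OE-WD against CT-WD and 0.45 (SE 0.12) for OE-CTD against CT-CTD, where Obsl1 was at 0.36 and 0.26. Fbxw8, listed with them, was at -0.01 and 0.04 there. Without OE libraries 4 the OE-WD against CT-WD value of Cul7 was 0.31. Ccdc8, at a mean of 0.3923 ± 0.147 FPKM, was at 0.60 (SE 0.392) for CT-WD against CT-CTD, 0.64 (SE 0.369) for OE-CTD against CT-CTD, 0.22 (SE 0.325) for OE-WD against OE-CTD and -0.38 (SE 0.509) for the interaction. Without CT-WD library 1 the first of these was -0.08 and the last 0.30. In edgeR 0 of the 3 listed genes were called after adjustment, while DESeq2 called Cul7 for OE-CTD against CT-CTD, as did edgeR without OE libraries 4.

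Gene length runs with the comparisons to a small degree. For OE-WD against CT-WD the median log2 fold change was -0.20 over the 1097 genes of the shortest length class. It was 0.04 over 1299 genes of 10000 bases or more. For the interaction these medians were -0.14 and 0.08, and for OE-WD against OE-CTD -0.09 and 0.05. For CT-WD against CT-CTD they ran the other way (0.07 and -0.03), and for OE-CTD against CT-CTD they were -0.02 and -0.04. In OE-CTD library 4 and OE-WD library 4 the 1296 other genes of 10000 bases or more deviated from their mean over libraries by a median of 0.08 and 0.12 on the log2 scale. Ttn deviated by 0.48 and 0.45 there. With the length trend of each library removed, the Mylk4 interaction was 0.71, and Ttn was at 0.05 in place of -0.15 for OE-CTD against CT-CTD.

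**Figure D2:**
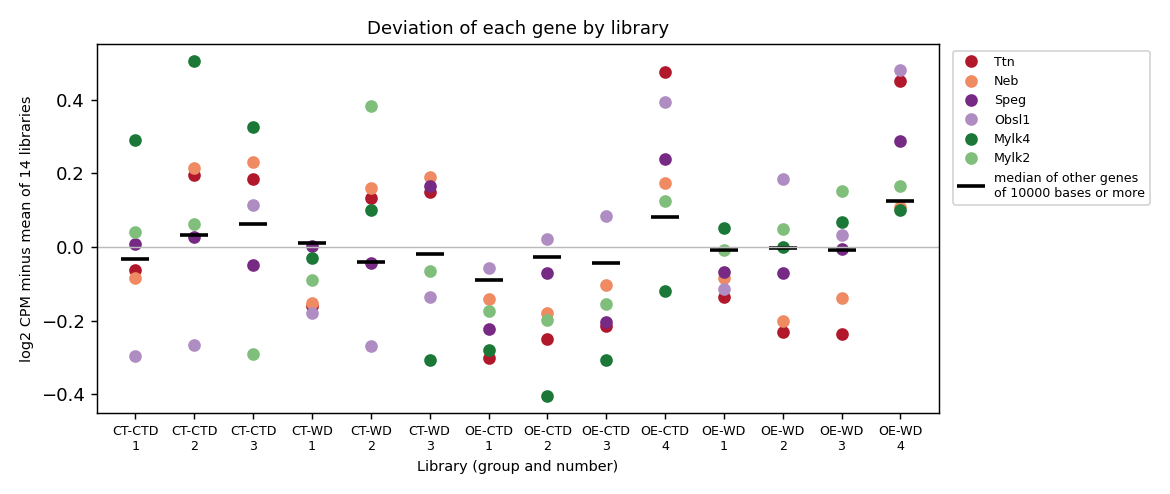
Difference of log2 CPM from the mean of the 14 libraries (vertical axis) for the 6 genes, with 1 point per gene in each library (horizontal axis), and a black bar for the median of 1296 other genes of 10000 bases or more. Ttn stands at 0.48 in OE-CTD library 4 and 0.45 in OE-WD library 4, above the bars at 0.08 and 0.12.

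The genes most like each of the 6 in log2 CPM over the 14 libraries, among 7335 protein-coding genes of at least 10 CPM, were found by Pearson correlation. For Mylk4 they were Ahctf1 and Rhbdl3 (both 0.90) and Tab2 (0.88), and for Mylk2 Slc43a1 (0.82), Prkab2 (0.81) and Zfp777 (0.78). For Ttn they were Pde4dip and Hipk3 (both 0.98) and Hif1an (0.98), and for Neb Wnk1 (0.97), Eif2b5 and Abcf2 (both 0.96). Those of Obsl1 were Nisch (0.94), Lamb2 (0.92) and Hspg2 (0.91), and those of Speg Baz2a (0.93), Ints1 (0.92) and Gbf1 (0.91). Lamb2 and Hspg2 encode a laminin chain and perlecan of basement membranes. The correlations share library scaling and the pair of libraries that stood apart.

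RefSeq starts on GRCm38.p6 were matched for 4 of the 6 genes, and the 250 bases before the start were searched on both strands for the E-box CANNTG, the MEF2 motif, the CArG box and TATAAA. The 4 genes had 7 windows, and the 3 with a MEF2 match, of Mylk4, Ttn and Speg, are shown. Capitals mark matches, and no E-box overlaps a MEF2 match. The windows are chr13:32783965-32784214 on the minus strand for Mylk4, chr2:76982548-76982797 on the minus strand for Ttn and chr1:75375047-75375296 on the plus strand for Speg.
Mylk4: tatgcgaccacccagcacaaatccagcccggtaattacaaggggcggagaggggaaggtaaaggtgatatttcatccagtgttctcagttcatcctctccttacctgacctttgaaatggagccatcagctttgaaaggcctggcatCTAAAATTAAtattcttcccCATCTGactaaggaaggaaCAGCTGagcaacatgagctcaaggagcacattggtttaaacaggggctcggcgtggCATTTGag
Ttn: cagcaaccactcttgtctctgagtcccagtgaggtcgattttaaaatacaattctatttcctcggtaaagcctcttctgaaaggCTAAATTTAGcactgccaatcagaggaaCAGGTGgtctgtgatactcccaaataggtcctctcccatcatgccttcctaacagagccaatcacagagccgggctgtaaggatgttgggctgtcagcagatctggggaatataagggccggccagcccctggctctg
Speg: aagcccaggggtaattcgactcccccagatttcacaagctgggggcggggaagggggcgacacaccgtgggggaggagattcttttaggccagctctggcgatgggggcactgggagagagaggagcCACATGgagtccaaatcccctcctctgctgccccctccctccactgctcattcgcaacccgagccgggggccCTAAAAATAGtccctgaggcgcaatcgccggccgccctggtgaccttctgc

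The Mylk4 window held 3 E-boxes and 1 MEF2 match, and those of Ttn and Speg each held 1 E-box and 1 MEF2 match. The Obsl1 window held 4 E-boxes and 0 MEF2 matches, and the 3 other Speg windows held 0 MEF2 matches. Of 32851 windows of 250 bases in the same table, 66.2% held an E-box, 2.92% a MEF2 match, 1.47% a CArG box and 12.4% TATAAA. Neither of the last pair of motifs was matched in these 3 windows. A match is a run of letters and not a site shown to be bound.

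Genes that overlap the 6 on the genome add few counts. The strand setting of the counting is not given in the sources used here, so reads of a gene and of an antisense partner could not be separated. The overlapping genes had at most 0.315 mean CPM (Tmem198, opposite to Obsl1).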

How the data were processed

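The authors deposited counts of reads per gene, without normalization, the gene length, and FPKM values. By the submitters' processing notes, HISAT2 2.0.5, featureCounts 1.5.0-p3 and mm10 were used. The deposited FPKM use a library total between 79.93% and 97.97% of the summed counts. Counts were fitted in R 4.3.3 with edgeR 4.0.16 (TMM, filterByExpr, quasi-likelihood test, all 14 libraries, a mean for each of the 4 groups), with Benjamini-Hochberg adjustment over 15458 genes and calls at 0.05. Genes dropped by the filter held 0.0467% to 0.0694% of the counts, depending on the library. An SE is the absolute log2 fold change divided by the square root of F. Log2 CPM used a prior count of 2. Alternatives used DESeq2 1.42.0 and limma 3.58.1 on log2(FPKM + 1) or log2(FPKM + 0.1), for genes with a mean of at least 0.5 FPKM or all genes. Functions were tested on simulated data. Positions of the 6 genes were the same in GENCODE M21.

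The 6 genes and the lists were chosen with earlier results of these data known. Genes named are the 6, listed genes called in a comparison, the listed gene with the largest absolute log2 fold change of each list where fewer than 5 were called, the 3 most correlated genes of each of the 6, and the most abundant gene of each marker list, of which 1 list is not reported here. Markers under 1 CPM, Mylk, Mylk3, Mylpf and Fbxw8, and genes named with the alternatives, were added after their values were seen. Deviations of same-numbered libraries from group means correlated at 0.385, 0.123 and 0.203 between CT-WD and CT-CTD. Between OE-WD and OE-CTD they correlated at 0.071, 0.138, 0.142 and 0.338. The labels do not pair libraries, and these values do not settle whether a shared number is a pair. Expression of the human c-Myc transgene was not examined.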

Additional observations from a re-analysis of the deposited data

Results flagged for a closer look

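Within groups of 4 libraries, the gap between the extreme library and its nearest neighbour was divided by the range of the group and set against the critical value of Dixon's test for 4 samples. Of 12 such groups (6 genes in OE-CTD and OE-WD), 4 were above it, where chance gives about 1 in 20. The 6 genes come from the same 8 libraries, so the groups are not independent and the counts cannot be set against that share. All 4 were high values of a library numbered 4, and those 2 libraries have the lowest TMM factors. On shares of the library's counts, without TMM scaling and chosen after seeing the data, 1 of 12 was above it (Ttn in OE-WD, 0.912), with 0.8 for Ttn in OE-CTD, 0.313 for Mylk2 in OE-CTD and 0.264 for Speg in OE-WD. For Ttn the ratio was 0.912 in OE-CTD (15160 CPM against 8842 to 9400) and 0.882 in OE-WD (14890 CPM against 9251 to 9915). For Mylk2 it was 0.874 in OE-CTD (1678 CPM against 1339 to 1382), and for Speg 0.838 in OE-WD (786.6 CPM against 614.6 to 642.4). The same libraries had mitochondrially encoded shares of 14.93% and 14.54%, and the part of RNA quality in these values was not tested.

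Mylk4 was lower in every CT-WD than in every CT-CTD library and higher in every OE-WD than in every OE-CTD library, with a log2 difference between the responses of 0.775. This difference is the value that chose the gene, so it is given as a description and was not tested here as independent evidence.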

How the results depend on the processing

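Of the 6 genes, the count called for CT-WD against CT-CTD was 1 (Mylk4) with DESeq2 and 1 with the 2 group names in doubt exchanged (CT-WD for OE-CTD), and for OE-CTD against CT-CTD it was 0 with the names exchanged. For the interaction it was 1 (Mylk4) with DESeq2, without the filter on low counts, with a replicate block, and with a replicate block and the length trend removed. The Mylk4 interaction was 0.784 with the block and between 0.668 and 0.866 when each library was left out, and no left-out library changed the count of the 6 called in any comparison. Alternatives for the 106 listed genes, and leaving out OE libraries 4, were chosen after seeing the data. For CT-WD against CT-CTD the listed genes called were 1 with CT libraries 2 and 3 only, 1 with DESeq2, 1 with names exchanged, 4 without the filter and between 0 and 2 when each library was left out. For the interaction 1 was called without the filter, and for OE-WD against OE-CTD 2 with names exchanged. For OE-CTD against CT-CTD they were 6 with CT libraries 2 and 3 only, 5 with DESeq2, 0 with limma without a filter, 0 with names exchanged, 5 without the filter, 6 without OE libraries 4, 3 with only the groups compared, 0 with a replicate block, with or without the length trend removed, and between 0 and 3 when each library was left out. For OE-WD against CT-WD they were 13 with CT libraries 2 and 3 only, 5 with DESeq2, 1 with the length trend removed, 1 with limma with either pseudocount, 0 with limma without a filter, 0 with names exchanged, 7 without the filter, 0 without OE libraries 4, 0 with only the groups compared, 0 with a replicate block, with or without the length trend removed, and between 0 and 10 when each library was left out. Over all genes, 112 were called for OE-WD against CT-WD, with 571 in DESeq2, 560 without the filter, 1680 with CT libraries 2 and 3 only, 44 with limma on log2(FPKM + 1), 1 with names exchanged, 6 with the block, 5 without OE libraries 4, 4 with only the groups compared, and between 4 (without OE-WD library 2) and 1499 (without CT-WD library 1). For OE-CTD against CT-CTD 413 were called, with 785 in DESeq2, 760 without the filter, 766 with CT libraries 2 and 3 only, 271 with limma on log2(FPKM + 1), 0 with names exchanged, 186 with the block, and between 77 (without CT-CTD library 3) and 615. For CT-WD against CT-CTD 0 were called, with 30 in DESeq2, 93 without the filter, 31 with CT libraries 2 and 3 only, 413 with names exchanged and 42 without CT-WD library 1. For OE-WD against OE-CTD 1 was called, with 112 with names exchanged, and for the interaction 0, with 29 without the filter, 1 in DESeq2 and 1 with the block. The causes were not tested. With the length trend removed, 21 of 30 log2 fold changes of the 6 genes kept their sign, and 28 of 30 without OE libraries 4. Of the 3 genes most like each of Mylk4, Mylk2, Ttn, Neb, Obsl1 and Speg, deviations from group means kept 0, 0, 1, 1, 0 and 0, and rank correlation kept 2, 1, 1, 0, 1 and 1. Same-numbered OE libraries correlated at 0.071, 0.138, 0.142 and 0.338 and, like those of CT, are not known to be pairs. Same-numbered libraries of OE-WD and CT-WD correlated at -0.23, -0.158 and -0.065. The block between genotypes thus ties libraries that these values do not pair. CT libraries 2 and 3 were taken alone because the deposited column names number library 1 apart. The spread between 3 or 4 libraries a group, with a biological coefficient of variation of 17%, limits the precision. Chi-square per degree of freedom between counts of 2 libraries is lower where they are more alike. It was 7.502 to 10.16 among OE-CTD libraries 1 to 3 and 8.166 to 14.49 among OE-WD libraries 1 to 3. It was 16.15 to 48.13 within CT groups and 35.61 to 41.24 for pairs with an OE library 4. Whether the more alike OE libraries are independent samples was not tested, so their spread may be too small. The muscle held in a library, the separateness of the animals and the cause of the offset of OE libraries 4 are not given by the labels, and gene counts carry no isoforms, phosphorylation or protein.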
